A study of Mus musculus with 6 samples.

Results

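The dystrophin glycoprotein complex was followed at the level of RNA in mouse quadriceps muscle through 8 genes chosen by name: Dmd, Utrn, Dag1, Sgca, Sgcb, Sgcd, Sntb1 and Dtna. They account for 8 of the 33641 gene symbols and 51 of the 105129 transcript rows of the expression table. Poly-A selected, stranded RNA-seq libraries came from 6 male mice aged 4 months (about 16 weeks), littermates from heterozygous parents, with tissue taken at about ZT4. The group called Homo has the genotype rs6190 allele +/+ (3 libraries), a mouse copy of a human variant in the glucocorticoid receptor gene, and the group called WT has the genotype ref allele +/+ (3 libraries). The allele is present throughout the body and from conception, so muscle is not its only site, and no drug or other treatment is named for either group. Values are TPM, abundance per 1000000 transcripts, which is divided by transcript length and can be compared between genes. No read depth comes with TPM, so counting error is unknown here, and 3 libraries a group limit the precision.

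The dystrophin glycoprotein complex links the actin cytoskeleton under the muscle fibre membrane to laminin outside it, and it steadies that membrane during contraction. Dystrophin (Dmd) is the rod on the inner side, and its loss causes Duchenne muscular dystrophy. Dystroglycan (Dag1) spans the membrane, the sarcoglycans form a subcomplex beside it, and syntrophins and dystrobrevin attach signalling proteins such as neuronal nitric oxide synthase. Utrophin (Utrn) is a close relative of dystrophin that in adult fibres is concentrated at the neuromuscular and myotendinous junctions.

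Dmd has several promoters, and the data bear on 2 of them, so their sequences are given, with the window before the long transcript Utrn-201. The Utrn window is called a promoter only because an annotated transcript starts after it. It lies inside the annotated gene, since Utrn-205 (75 exons, also 10290 coding bases) starts upstream of it, at chr10:12869365. None of its bases lie inside annotated exons, so it may be intron sequence, and its motifs need not be those of a promoter. Each of the sequences is the 250 bases before an annotated start site, 5′ to 3′ on the coding strand, from RefSeq on GRCm38.p6. Capitals mark a glucocorticoid response element half-site (AGAACA), an E-box (CANNTG) or a CArG box, each searched on both strands.
Dmd, full-length promoter: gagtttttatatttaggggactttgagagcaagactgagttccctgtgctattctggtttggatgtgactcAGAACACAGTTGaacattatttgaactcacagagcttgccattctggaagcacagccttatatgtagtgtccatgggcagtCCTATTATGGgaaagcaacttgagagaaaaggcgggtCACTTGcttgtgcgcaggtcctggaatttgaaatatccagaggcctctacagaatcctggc
Dmd, internal promoter: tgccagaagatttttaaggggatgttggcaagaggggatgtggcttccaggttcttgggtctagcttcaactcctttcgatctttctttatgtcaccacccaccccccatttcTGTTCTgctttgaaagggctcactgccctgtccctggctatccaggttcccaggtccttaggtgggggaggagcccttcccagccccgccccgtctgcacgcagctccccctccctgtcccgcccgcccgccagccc
Utrn, promoter of the long transcript: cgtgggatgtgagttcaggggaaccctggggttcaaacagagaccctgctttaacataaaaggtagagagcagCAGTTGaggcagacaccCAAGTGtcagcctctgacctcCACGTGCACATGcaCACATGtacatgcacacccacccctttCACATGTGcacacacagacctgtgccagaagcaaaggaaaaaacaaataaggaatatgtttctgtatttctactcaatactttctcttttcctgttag

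The first sequence, at chrX:82948620-82948869 on the plus strand, lies before the full-length dystrophin transcript Dmd-203. It holds 1 glucocorticoid half-site, 2 E-boxes and 1 CArG box, and its first E-box follows the half-site directly. The second, at chrX:85048045-85048294 on the plus strand, lies before the short transcript Dmd-201 and holds 1 half-site, on the other strand, with 0 E-boxes and 0 CArG boxes. The third, at chr10:12861736-12861985 on the minus strand, lies before Utrn-201 and holds 7 E-boxes, 2 of which overlap, and no match to the other motifs. Among 32817 upstream windows of the same length, 16.1% hold the half-site, 66.2% an E-box and 1.5% a CArG box. A match is a run of letters and does not show that a factor binds there.

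The members differed widely in level. Sgca led at 179.7 TPM (mean of the 6 libraries), followed by Sgcb at 32.4, Dag1 at 29.8, Dtna at 23.3, Dmd at 18.9, Sgcd at 8.07, Utrn at 2.58 and Sntb1 at 0.739 TPM. The ranges over the 6 libraries were separate between Sgca and Sgcb and between Utrn and Sntb1. Those of the other neighbours overlapped, although Dag1 was above Dtna, Dmd above Sgcd and Sgcd above Utrn in 6 of 6 libraries. Sgcb was above Dag1 in 4 of 6 libraries only.

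**Figure D1:**
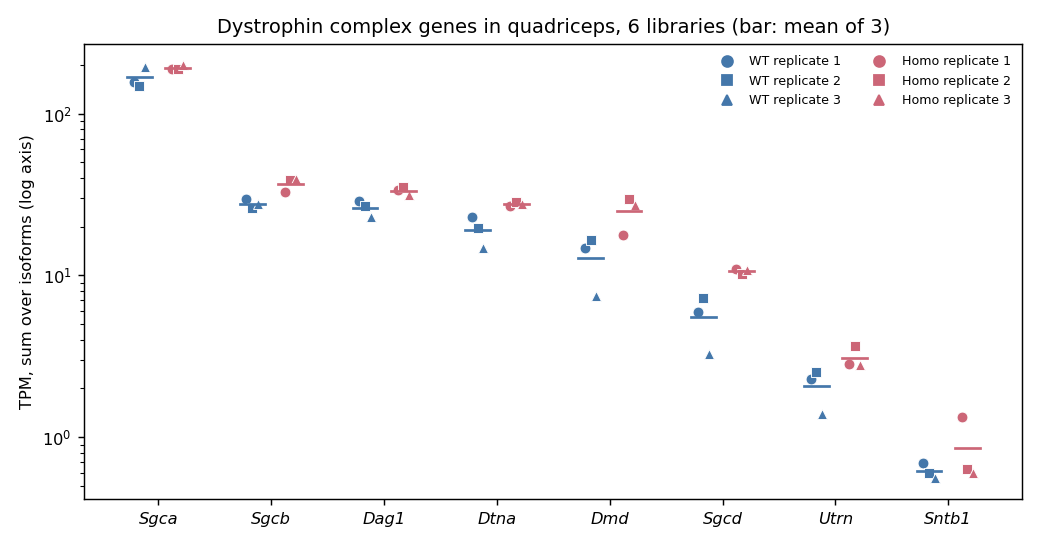
TPM of the 8 genes in each library, summed over isoforms, on a log axis, with blue symbols for WT and red symbols for Homo libraries and a bar at the mean of each group of 3. Homo symbols lie above all WT symbols for Dmd, Utrn, Dag1, Sgcb, Sgcd and Dtna, and WT replicate 3 is the lowest library for 6 of the 8 genes.

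Of the 8 genes, 7 reached 1 TPM in at least 3 libraries and were tested. All 7 had a higher mean log2 level in the Homo libraries, as did 85.8% of all genes tested. None passed the threshold, an adjusted p under 0.05 over all genes: 0 of 7 members in limma, against 0% of the 11099 genes tested. At an unadjusted p under 0.05 there were 5 members, all higher in Homo, against 23.7% of all genes higher in Homo. For 6 of the 7 the 3 Homo values lay above the 3 WT values, which also held for 34.7% of all genes tested. The reverse order held for 0 members and for 0.730% of all genes. The median difference of the 7, on the log2(TPM + 1) scale and Homo minus WT, was 0.43, against 0.26 over all genes. Higher values in Homo were thus common across the table, and the difference of each tested member gene is also given relative to that median of 0.26.

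Facts of the libraries, some of which move with the groups, belong beside these values. Transcripts above 0 TPM numbered 51099, 50660 and 49277 in Homo replicates 1, 2 and 3. They numbered 48546, 47521 and 43986 in WT replicates 1, 2 and 3, so every Homo library held more than every WT library. The part of this in the isoforms listed at 0 was not tested. Mitochondrial transcripts made up 20.9% to 27.4% of TPM in Homo and 14.3% to 33.9% in WT libraries. WT replicate 3 stood apart: the fast-fibre marker sum was 171900 TPM there and 76490 to 100800 TPM in the other libraries. All 6 muscle fibre markers were present in every library, with a summed 41900 to 64360 TPM. Their sums overlapped between groups, with 3 of 6 markers above in Homo without overlap. The slow-fibre sum was 1600, 8706 and 1907 TPM in Homo replicates 1, 2 and 3 and 199 to 1499 TPM in WT libraries. Homo replicate 2 was thus far above all other libraries, and 5 of 7 markers were above in Homo without overlap. The Schwann cell sum was 14.4 to 69.9 against 7.66 to 12.0 TPM (4 of 4 markers above), smooth muscle and pericyte 82.7 to 92.01 against 60.4 to 80.8 TPM (4 of 5), and macrophage and leukocyte 6.76 to 9.27 against 2.23 to 6.41 TPM (2 of 4). Over all genes tested, 34.7% were above in Homo without overlap. Endothelial and fibroblast sums overlapped, and none of the markers was at 0 in any library. The part of these cells in the member values was not tested, and in whole muscle fewer cells of a type and less RNA per cell cannot be told apart.

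Dmd (chrX:82948870-85206141, plus strand, GRCm38), which encodes dystrophin, had the largest difference of the 7 as reported. Sgcd exceeded it with the length trend removed, with a pseudocount of 0.1, and without Homo replicate 2, Homo replicate 3 or WT replicate 3. Dmd was 17.8, 29.6 and 27.4 TPM in Homo replicates 1, 2 and 3 and 14.7, 16.5 and 7.41 TPM in WT replicates 1, 2 and 3. The groups did not overlap, and the gap between Homo replicate 1 and WT replicate 2 was small beside the range within each group. Means were 24.9 ± 6.26 and 12.9 ± 4.80 TPM (SD, n = 3 each), a ratio of 1.94. The log2 difference was 0.94 (SE 0.30), 0.67 more than the median gene, and it did not pass over all genes (limma, adjusted p 0.168). Of all genes tested, 220 had a larger difference. Without WT replicate 3 the difference was 0.61, or 0.41 above the median. With a per-library trend of level on transcript length removed it was 0.55, and the groups then overlapped.

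Most Dmd abundance was divided among 3 of its 14 transcript rows, the only ones with a mean of 1 TPM or more. Dmd-203 is the full-length transcript, with 79 exons, 14910 nt and 11034 coding bases. Dmd-201, with 18 exons, 4438 nt and 1851 coding bases, starts at the internal promoter and encodes the short dystrophin known as Dp71, which is found in many non-muscle cells. Dmd-211 is annotated as a retained intron transcript, with 17 exons and 2494 nt and 0 coding bases. Of the exonic bases of Dmd-201, 98.9% lie inside exons of Dmd-203, and of those of Dmd-211, 90.1%, so most reads of these transcripts fit more than 1 of them. The split between them is an estimate.

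Full-length Dmd-203 was 3.84, 6.67 and 5.81 TPM in the Homo mice against 2.66, 2.58 and 0.406 TPM in the WT mice. All Homo values were above all WT values, and WT replicate 3 was far below the other WT libraries. The log2 difference was 1.26 (SE 0.42), not past the threshold over all isoforms (limma, adjusted p 0.287), and it was 0.80 without WT replicate 3. Short Dmd-201 was 9.28, 17.6 and 16.2 TPM in the Homo mice against 10.5, 13.5 and 6.57 TPM in the WT mice. Its groups overlapped, with Homo replicate 1 below WT replicates 1 and 2, and its log2 difference was 0.46 (SE 0.32), or 0.20 without WT replicate 3. The retained intron transcript Dmd-211 was 3.33, 2.76 and 4.44 TPM in the Homo mice against 1.19, 0.359 and 0.352 TPM in the WT mice. This was the smallest adjusted p of all member isoforms, at 0.215 (limma, log2 difference 1.49, SE 0.28).

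The division of Dmd among its transcripts is given next as shares of the gene sum. Full-length Dmd-203 was 21.6%, 22.6% and 21.2% of the gene sum in the Homo mice against 18.1%, 15.7% and 5.48% in the WT mice. The Homo shares were close together, and the WT shares were lower and spread widely. The difference of the means was 8.70 percentage points, and 4.90 without WT replicate 3. Short Dmd-201 was 56.9% ± 4.12 in Homo and 80.6% ± 8.62 in WT libraries (SD, n = 3 each), and Dmd-211 was 14.7% ± 4.84 against 5.01% ± 2.97. For each of these 3 the groups did not overlap, and the exact permutation test, two-sided, gave p = 0.1, the smallest that 3 against 3 allows, or 0.3 when adjusted over the 9 isoform shares compared. None therefore passed, and the groups did not overlap for 19.7% of all isoform shares taken by the same rule. The 3 shares are parts of 1 gene sum, so they are not independent results. A lower share of Dmd-201 goes with higher shares of the other transcripts. A further Dmd transcript of 596 nt, Dmd-204, was 1.10, 1.33 and 0.36 TPM in the Homo mice and was given as 0 for every WT mouse. Its mean was under 1 TPM and it was named after its values were seen.

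Utrn (chr10:12382188-12869365, minus strand), the gene of utrophin, was low in this tissue. It was 2.85, 3.65 and 2.80 TPM in the Homo mice against 2.27, 2.54 and 1.38 TPM in the WT mice, without overlap. The log2 difference was 0.43 (SE 0.20), 0.17 more than the median gene (limma, adjusted p 0.222), and it was 0.026 with the length trend removed, where the groups overlapped. Without WT replicate 3 it was 0.26, or 0.061 above the median. Sums of 3 neuromuscular junction markers, where utrophin is concentrated, overlapped between groups (20.8 to 26.1 against 15.2 to 22.5 TPM).

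Utrn abundance lay mainly in a long and a shorter transcript, and 4 of its 14 rows were at 0 in every library. The long Utrn-201 (12382 nt, 74 exons, 10290 coding bases) was 1.20, 1.38 and 0.988 TPM in the Homo mice against 0.813, 0.811 and 0.273 TPM in the WT mice. Only Homo replicates 1 and 2 reached 1 TPM, so it was not tested, and with a mean of 0.911 TPM it was named after its values were seen. The shorter Utrn-206 (5751 nt, 25 exons, 2868 coding bases), which starts inside the gene, was 1.44, 1.72 and 1.29 TPM in the Homo mice against 1.29, 1.62 and 0.976 TPM in the WT mice. Its groups overlapped (log2 difference 0.12, SE 0.21).

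**Figure D2:**
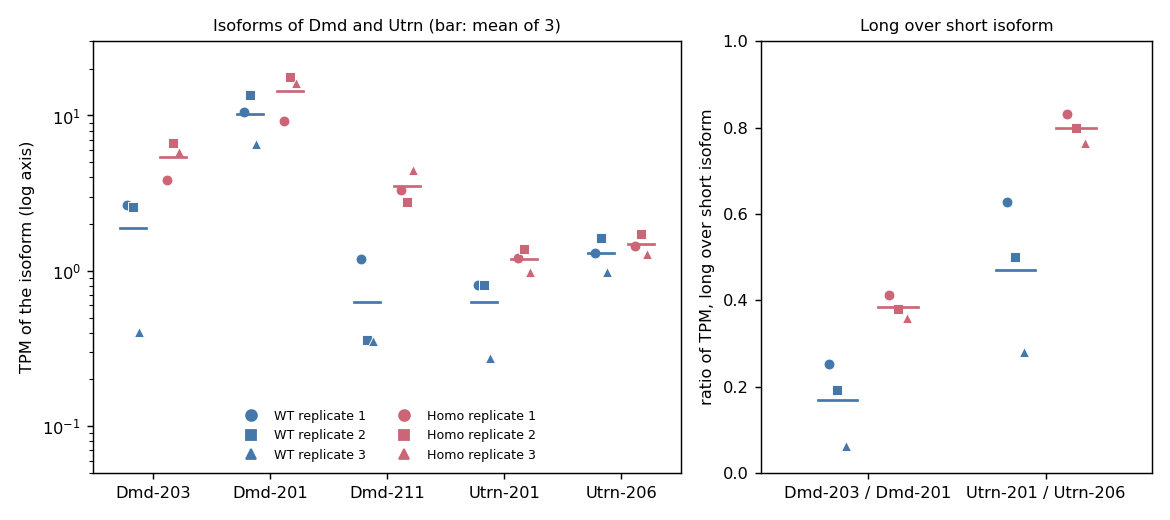
Left, TPM of 3 Dmd and 2 Utrn isoforms in each library on a log axis, and right, the ratio of the long to the short isoform of each gene, with a bar at the mean of each group of 3. In both genes the 3 Homo ratios lie above the 3 WT ratios and WT replicate 3 is lowest.

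Long and short transcripts of the 2 genes were set against each other within each library. The ratio of Dmd-203 to Dmd-201 was 0.413, 0.379 and 0.359 in the Homo mice against 0.253, 0.192 and 0.0618 in the WT mice. That of Utrn-201 to Utrn-206 was 0.832, 0.799 and 0.765 in the Homo mice against 0.629, 0.501 and 0.279 in the WT mice. The libraries fell in the same order for both genes, from Homo replicate 1 down to WT replicate 3. The groups did not overlap in either ratio (exact permutation test, two-sided, p = 0.1 each, the smallest possible). These ratios were chosen after the values were seen.

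Transcript length moved with library across the whole table. Deviations from the mean of the 6 libraries, as medians over isoforms on the log2(TPM + 1) scale, were -0.11 in WT replicate 3 for the 6993 tested isoforms under 1000 nt and -0.54 for the 85 of 12000 nt or more, the class of Dmd-203. In WT replicates 1 and 2 the same 2 classes were -0.051 and -0.094, and -0.13 and -0.092. In Homo replicate 1 they were nearly level, at 0.12 and 0.13. In Homo replicate 2 they were 0.17 and 0.36, and in Homo replicate 3 0.13 and 0.22. The median log2 difference between the groups was 0.22 under 1000 nt and 0.48 at 12000 nt or more, where 60.0% of isoforms had Homo values above all WT values. The difference of Dmd-203 was 1.26 by the same measure, and with the length trend removed from each library it was 0.79.

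**Figure D3:**
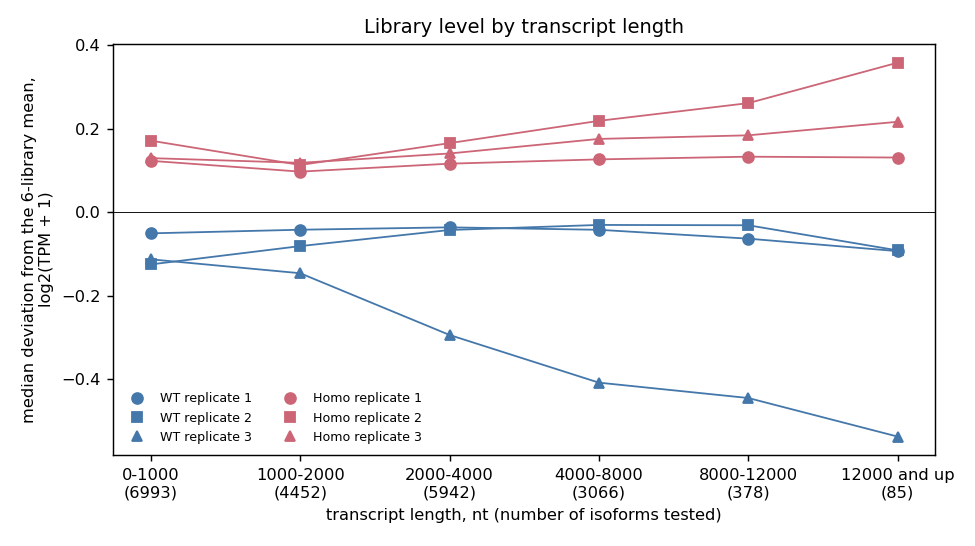
Median deviation of tested isoforms from their 6-library mean, on the log2(TPM + 1) scale, by class of transcript length in nt, with 1 line per library. WT replicate 3 goes from -0.11 in the shortest class to -0.54 in the longest, and Homo replicate 2 from 0.17 to 0.36.

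Dag1 (chr9:108204634-108263958, minus strand) encodes both subunits of dystroglycan, the laminin receptor of the complex. It was 33.9, 35.0 and 31.3 TPM in the Homo mice against 29.0, 26.8 and 22.9 TPM in the WT mice. The groups did not overlap, but the difference of 0.34 (SE 0.13) was only 0.078 above the median of all genes (limma, adjusted p 0.189), and it was -0.034 with the length trend removed. Of its 7 rows, Dag1-204 (5662 nt) held nearly all abundance, at 30.6 ± 1.27 against 24.5 ± 2.38 TPM (SD, n = 3 each), and 2 rows were at 0 throughout.

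The sarcoglycans are small membrane proteins that assemble as a unit, and mutations in them cause limb-girdle muscular dystrophies. Sgcd (chr11:46896253-47988969, minus strand), the delta subunit, was 10.9, 10.2 and 10.8 TPM in the Homo mice against 5.95, 7.29 and 3.27 TPM in the WT mice. The Homo values were close together and all above WT, with WT replicate 3 lowest. Means were 10.6 ± 0.369 and 5.50 ± 2.05 TPM (SD, n = 3 each), a ratio of 1.93. The log2 difference was 0.89 (SE 0.24), or 0.63 above the median, with 258 of all genes showing a larger one, and it did not pass over all genes (limma, adjusted p 0.168). Its 1617-nt transcript Sgcd-201 held nearly all of this abundance. The difference of the gene was 0.67 with the length trend removed, without overlap. Without WT replicate 3 it was 0.62, or 0.42 above the median.

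Sgcb (chr5:73632749-73647790, minus strand), the beta subunit, was 32.7, 38.8 and 39.4 TPM in the Homo mice against 29.8, 26.02 and 27.5 TPM in the WT mice. The groups did not overlap, and here WT replicate 3 lay between the other WT libraries. The difference was 0.40 (SE 0.13), 0.13 more than the median gene (limma, adjusted p 0.171). With the length trend removed it was 0.057, and the groups then overlapped. Sgca (chr11:94962791-94976327, minus strand), the alpha subunit and the most abundant member, was 188, 188 and 200.6 TPM in the Homo mice against 158, 149 and 195 TPM in the WT mice. Its groups overlapped through WT replicate 3, and its difference of 0.21 (SE 0.14) was 0.055 below the median of all genes (limma, adjusted p 0.358).

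Sgca had 4 isoforms at 1 TPM or more, and its main one, Sgca-201 (1465 nt), was 132 ± 1.48 in Homo and 110 ± 14.5 TPM in WT libraries (SD, n = 3 each). The groups of Sgca-201 did not overlap, while those of Sgca-202, Sgca-203 and Sgca-204 did. Sgca-204, a fragment model of 351 nt, was 10.004, 11.03 and 11.6 TPM in the Homo mice, listed at 0 in WT replicate 1 and at 13.2 and 2.31 TPM in WT replicates 2 and 3. No share of an Sgca isoform differed without overlap, with 68.7% ± 2.86 in Homo and 66.02% ± 4.78 in WT libraries for Sgca-201 (exact permutation test, two-sided, p = 0.5, adjusted p 0.5).

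Dtna and Sntb1 belong to the cytoplasmic part of the complex. Dtna (chr18:23415135-23659715, plus strand), alpha-dystrobrevin, was 26.6, 28.4 and 27.5 TPM in the Homo mice against 23.04, 19.5 and 14.7 TPM in the WT mice. The Homo libraries varied little and lay above all WT libraries. The difference was 0.53 (SE 0.17), or 0.26 above the median (limma, adjusted p 0.168), and 0.21 with the length trend removed, still without overlap. Only 2 Dtna transcripts are in the table, and both differ in version from GENCODE M21. There they are 1596 nt (Dtna-201) and 6295 nt (Dtna-202) long, while the gene has 16930 exonic bases, so the Dtna sum covers only part of them. Dtna-201 was 19.0 ± 0.837 against 12.1 ± 4.54 TPM and Dtna-202 was 8.51 ± 0.404 against 6.94 ± 0.378 TPM (SD, n = 3 each), both without overlap.

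The shares of the 2 Dtna transcripts overlapped between groups, with Dtna-201 at 65.3% to 70.9% in 5 libraries and 49.8% in WT replicate 3. Sntb1 (chr15:55636388-55906949, minus strand), beta-1-syntrophin, was the lowest member. It was 1.34, 0.638 and 0.602 TPM in the Homo mice against 0.694, 0.600 and 0.557 TPM in the WT mice. Homo replicate 1 alone was above 1 TPM, so the gene stayed below the limit for testing, and its groups overlapped.

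Of the 51 member transcripts, 14 were tested and 0 passed (limma), against 0.0425% of the 21165 isoforms tested, and 6 had an unadjusted p under 0.05, all higher in Homo, against 14.2% of all isoforms. For 8 of the 14 the Homo values lay above all WT values, against 25.6% of all isoforms. The reverse order held for 0 of the 14 and for 2.11% of all isoforms. A further 9 of the 51 were at 0 in every library.

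**Figure D4:**
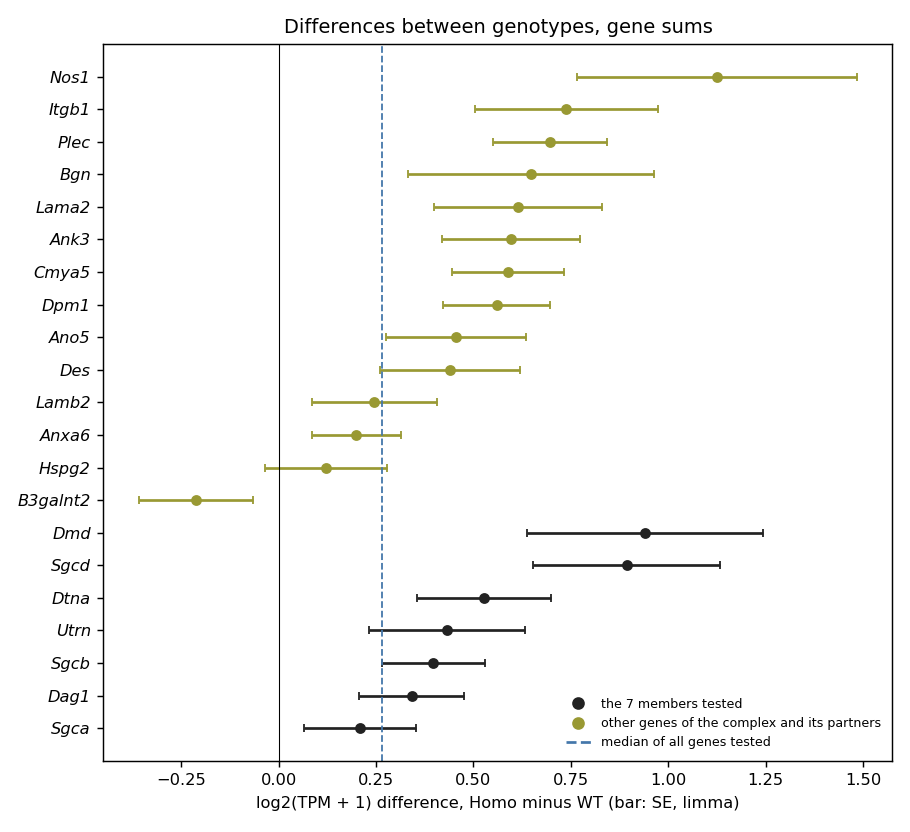
Log2(TPM + 1) difference, Homo minus WT, with its SE from limma, for the 7 tested members (black) and for 14 other genes of the complex and its partners (olive), with a dashed line at the median of all genes, 0.26. Dmd and Sgcd at 0.94 and 0.89 stand highest among the members, and Sgca lies left of the line.

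The rest of the pathway was read from 5 lists with 65 symbols, of which 62 are in the table and 53 were tested. None of the 53 passed (limma, smallest adjusted p 0.168). At an unadjusted p under 0.05 there were 17, all higher in Homo, against 23.7% of all genes. For 20 of the 53 the Homo values lay above all WT values, against 34.7% of all genes, which is also the share to set beside the count of each list. Their median difference was 0.25, against 0.26 over all genes. Among the other sarcoglycans, syntrophins and bound proteins (6 tested, median 0.18, 2 without overlap), Nos1 was the one with the largest difference. Nos1, neuronal nitric oxide synthase, which syntrophin anchors at the membrane, was 8.84, 16.2 and 21.4 TPM in the Homo mice against 8.06, 7.84 and 3.58 TPM in the WT mice (difference 1.12, SE 0.36).

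Matrix ligands of dystroglycan (9 tested, median 0.20, 2 without overlap and both above in Homo) included Lama2, the laminin chain of muscle basement membrane, at 8.43 ± 1.12 against 5.27 ± 1.65 TPM (SD, n = 3 each). Bgn, Lamb2 and Hspg2 overlapped between groups. Of the enzymes that build the laminin-binding sugar of dystroglycan (16 tested, median 0.23, 5 without overlap), Dpm1 was 132 ± 11.2 against 89.3 ± 9.49 TPM (SD, n = 3 each). B3galnt2 went the other way, at 28.6 ± 4.72 against 33.0 ± 0.885 TPM, with overlap.

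Cytoskeletal and membrane partners (11 tested) had the highest median of the lists, 0.43, with 5 without overlap. Of the 11, 9 had a higher mean log2 level in Homo, as did 85.8% of all genes tested. The other two, named after their values were seen, were Aqp4, the water channel aquaporin-4, at 2.90 ± 1.63 against 4.49 ± 0.634 TPM (difference -0.57, the lowest of the 53), and Cav3, muscle caveolin, with a difference of -0.086, both with overlap. Plec, which encodes the linker protein plectin, was 53.5, 62.3 and 44.8 TPM in the Homo mice against 31.4, 32.9 and 32.8 TPM in the WT mice. WT replicate 3 was level with the other WT libraries for Plec (difference 0.70, SE 0.15). Des, the intermediate filament desmin, was 1746 ± 159 against 1296 ± 228 TPM, Cmya5 261 ± 4.26 against 174.5 ± 24.8 TPM, and Ank3, which binds dystrophin, 22.1 ± 4.27 against 14.2 ± 1.93 TPM (SD, n = 3 each). The list of other adhesion and repair genes (11 tested, median 0.23, 6 without overlap) was led by Itgb1, the beta subunit of the muscle laminin integrin, at 87.98 ± 10.5 against 53.95 ± 16.5 TPM. Ano5 was 23.7 ± 2.24 against 17.2 ± 3.74 TPM and Anxa6, an annexin of membrane repair, 87.2 ± 2.67 against 75.8 ± 3.49 TPM.

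The profiles of Dmd and Utrn over the 6 libraries were compared with those of all other tested genes, as the root mean square distance between log2(TPM + 1) values centred on their mean. Nearest to Dmd were Swt1 (distance 0.077), Prrx1 (0.078), Nsun3 (0.079), Hivep3 (0.0901) and Med13 (0.0903), against a median of 0.50 over 11098 genes. Sgcd was the nearest member, at rank 314 with 0.24, and Sgca the farthest, at rank 8310 with 0.61. Among the nearest to Utrn were Cand1 (0.017), Ctnnd1 (0.035), Cnot6 (0.0447) and Ern1 (0.0449), and the nearest member was Dag1, at rank 981 with 0.13. Many genes outside the complex were thus closer to Dmd and Utrn than any member was.

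**Figure D5:**
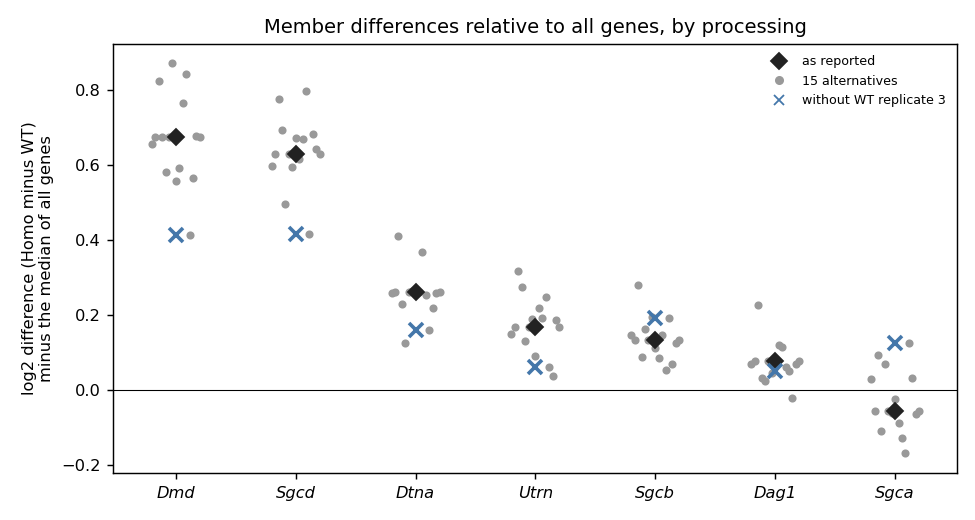
Difference of each tested member minus the median of all genes, on the log2 scale, as reported (diamond), in 15 alternatives (dots) and without WT replicate 3 (cross). Dmd and Sgcd stay between 0.41 and 0.87, and Sgca lies on both sides of 0.

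Relative to the median of all genes, Dmd ran from 0.41 to 0.87 and Sgcd from 0.42 to 0.80 over 15 alternative ways of processing. Dtna ran from 0.13 to 0.41, Sgcb from 0.053 to 0.28 and Utrn from 0.038 to 0.32, all above 0 in 15 of 15. Dag1 was above 0 in 14 and Sgca in 5 of 15. Median centring, a replicate block and leaving out the variance trend cannot change this measure, so they only repeat the reported values. When each library was weighted by its overall fit (array weights), 2 members passed, Dmd (limma, adjusted p 0.0468) and Sgcd (0.0402), beside 7.06% of all genes higher in Homo. The weights were 2.5, 0.823 and 0.199 for WT replicates 1, 2 and 3 and 0.833, 1.91 and 1.53 for Homo replicates 1, 2 and 3. The WT group in that fit thus rested mainly on WT replicate 1. When the libraries were brought to a common median, or to common quantiles, the count of members without overlap was 2 in place of 6, Sgcd and Dtna, against 6.79% and 8.05% of all genes above in Homo and 8.38% and 7.34% below. The same 2 were without overlap when the length trend was removed (7.38% of all genes above and 7.26% below). With mitochondrial transcripts left out Dmd and Utrn overlapped between groups and Sgca did not, and 5 members were above without overlap (19.6% of all genes above, 1.21% below), and without WT replicate 3 all 7 were (42.1% above, 2.47% below).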

How the data were processed

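The authors deposited TPM values for each Ensembl transcript in each library, with gene symbols, per the file headers. The submitters' processing notes list FastQC, Trimmomatic, HISAT2 and kallisto, and the build mm10, without versions. The sources used here name neither parameters nor an annotation release. Each of the 6 columns matched 1 library by name. Each library summed to 1000000 TPM.

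The deposited isoform values were summed per gene and transformed to log2(TPM + 1), which understates the change of low genes. A feature that reached 1 TPM in 3 or more libraries was tested with limma 3.58.1 (R 4.3.3, variance trend, robust), genotype as the only term, and Benjamini-Hochberg adjustment over the whole table. The test suited to counts did not apply, since the table holds TPM. Isoform shares were compared by an exact permutation test over samples. Limma p-values set the difference between groups against the spread of libraries within a group, which is estimated partly from all genes. Permutation p-values give the share of group assignments with a difference at least as large. Both rest on these 6 libraries only.

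Transcript names, lengths and positions come from GENCODE M21 (GRCm38), and the authors may have used another release. Of 105129 rows, 103635 matched without the version number, and 4 of the 51 member rows did not match or differed in version. Windows upstream of an annotated start site were found for 6 of the 8 members. Tests were checked on simulated data with 200 changed features: a log2 change of 1 was recovered for 80.5% of genes, with 16 false calls, and a change of 0.5 for 0%. For isoforms these were 0% at a change of 1 and 86.0% at 2. The simulated noise was independent between features and libraries. It held no shift shared across a library, such as the length trend, so these rates need not hold for the real data.

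The members, lists and naming rule were chosen with earlier results of these data known. All members, their isoforms with a mean of 1 TPM or more (at most 4 a gene), the 2 highest and the 2 most different genes of each list, and the 5 profiles nearest to Dmd and Utrn were named, except some that are not reported here. The count of members without overlap under each alternative was added after seeing the data.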

Additional observations from a re-analysis of the deposited data

How the results depend on the processing

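What depth limits is not known here, since TPM keeps no read depth. Genes called numbered 0 and were 810 with array weights and 0 to 2 when each library was left out (2 without WT replicate 1, 1 without WT replicate 2). Members called were 2 and other complex genes 8 with array weights, and 0 in all other alternatives run. Isoforms called, 9, were 3 after quantile normalization, 5 after median centring, 0 with no filter, 4 with a pseudocount of 0.1, 14 with array weights, 4 with the length trend removed and 5 with mitochondrial transcripts left out. They were 0 to 36 when each library was left out: 36 without WT replicate 1, 1 without Homo replicate 3 and 0 without Homo replicate 1, Homo replicate 2 or WT replicate 3. Member isoforms called were 0 throughout. The median member difference of 0.43 was 0.14 after quantile normalization, 0.13 after median centring and 0.057 once the length trend was removed. Members without overlap were 2 in each of these. Isoform shares without overlap, 3, were 3 to 6 when each library was left out, 6 without WT replicate 1. The cause was not tested, except that no filter tests more isoforms.

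With a replicate block in the fit, 0 genes, 0 members and 0 isoforms were called. Deviations of same-numbered libraries correlated at -0.071, 0.061 and -0.013, so the numbers were not taken as pairs.

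These directions changed, all for values not past the threshold. With the length trend removed Dag1 was -0.034, Dag1-204 -0.041, Utrn-206 -0.24, Sgca-202 -0.195 and Dtna-202 -0.11. With median centring Sgca was -0.092, Sgca-201 -0.0020, Sgca-202 -0.25, Utrn-206 -0.15 and Dtna-202 -0.0093. With quantile normalization Utrn-206 was -0.15 and Sgca-202 -0.21. With array weights Sgca-203 was 0.17 and Sgca-202 -0.048. When each library was left out Sgca-203 ran from -0.26 to 0.20 and Sgca-202 from -0.19 to 0.19. Dmd, Utrn, Sgcb, Sgcd and Dtna kept their direction in 15 of 15 alternatives. A replicate block and leaving out the variance trend could not have changed it.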

Other observations

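Markers of regenerating fibres, which rise when dystrophin is lacking, were between 0.135 and 7.06 TPM in every library. Embryonic myosin Myh3 was 0.603 to 0.912 TPM in Homo and 0.135 to 0.573 TPM in WT libraries. Perinatal myosin Myh8 overlapped, at 1.597 to 2.26 and 1.14 to 2.33 TPM. Myogenin (Myog) lay below WT in all Homo libraries, at 1.42 to 2.69 against 3.10 to 3.66 TPM. Over all genes tested, 34.7% were above in Homo without overlap and 0.730% below. After median centring these shares were 6.79% and 8.38%. Whether regeneration differed between the groups was not tested. Ncam1, a neural cell adhesion molecule that also marks denervated fibres, overlapped, at 2.27 to 7.06 against 0.868 to 3.63 TPM. Among neuromuscular junction genes, Chrne, Chrna1 and Musk each overlapped between groups, and Musk, which organizes the receptor clusters, was 8.29 to 10.2 TPM in Homo and 3.60 to 8.37 TPM in WT libraries.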
